A study of Saccharomyces cerevisiae with 24 samples.

Results

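The 35 genes described here are intron-containing genes of Saccharomyces cerevisiae that lie outside the ribosomal protein genes, the meiotic genes, the snoRNA host genes and the larger functional groups of intron genes. They were chosen as a list of open reading frame identifiers by function, with earlier results of these data known, and make up 35 of 5674 genes measured. They comprise 7 genes of membrane traffic and the vacuole, 3 of lipid synthesis, 5 of chromatin, repair and chromosomes, 5 of tRNA, translation and mRNA control, 7 of protein turnover, folding and metabolism, and 8 that are little characterised. Their RNA polymerase II signal was close to that of intronless genes, with a median log2 ratio of -0.05 against -0.07. Of the 35, 17 lay below the median of intronless genes and 5 in the top quintile for polymerase. The annotated gene span was not a multiple of 3 for 27 of the 35, as a coding sequence interrupted by an intron allows.

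Splicing in yeast begins while the RNA is still attached to the polymerase, so that the chromatin of an intron gene can be crosslinked to the splicing machinery. The U1 particle, with Prp40, binds the start of the intron. BBP and Mud2 bind the branch point region and are replaced there by the U2 particle, with Lea1 and Prp11, helped by the ATPase Prp5. Brr2, Prp2 and the Prp19 complex then remodel the assembled spliceosome for catalysis. Most yeast genes have no intron, and the ribosomal protein genes supply a large share of all spliced transcripts.

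Chromatin immunoprecipitation was read on spotted open reading frame arrays in 24 columns, each of which is the combined result of 2 to 6 biological replicates. The tags are C-terminal and at the factors' own loci, and the RNA polymerase II column carries no tag label. Profiles from vegetative cells in rich medium at an optical density of 0.6 were those of Prp40-9myc, Mud2-13myc, Lea1-13myc, Prp11-13myc, Prp5-9myc, Prp2-13myc, Prp19-9myc, Brr2-13myc, Sub2-3HA, Spt5-9myc and RNA polymerase II. The BBP-3HA profile has no growth label. Prp40-9myc was also measured in rich medium in cells labelled del_cbc, taken here as a deletion of the nuclear cap-binding complex. After a shortened fixation it was measured in rich medium without and with RNase, as was Mud2-13myc. Prp40-3myc was measured in SC-URA medium in a control, in spt5_194 cells and after 80 ug/ml of the elongation inhibitor 6-azauracil for 30 minutes. Lea1-13myc and Brr2-13myc were each measured in SC-HIS medium after 30 minutes at 37C, in cells with wild-type SUB2 and with the temperature-sensitive allele SUB2_85 (called sub2_85 below).

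Values are log2 ratios, taken here as immunoprecipitate over whole-cell extract. That direction is likely from the dyes in the labels but is not stated for the combined values, and dyes were reversed in at least 1 replicate per factor. Pearson's r across the whole array was under -0.3 for 3 pairs of columns. These were Mud2 with Prp40-3myc in 6-azauracil (-0.34), Prp40-3myc in spt5_194 with Mud2 after RNase (-0.36), and the Lea1 column of SUB2 wild type with Mud2 after RNase (-0.32). By rank the first pair also ran in opposite directions, with a Spearman rho of -0.40, while the others had rho values of 0.05 and 0.04. The direction of these 5 columns is treated as not settled, and the results that change when their sign is turned are given both ways. Because each group is a single column, no spread between replicates and no p-value could be given, and every count below describes these arrays. A gene is called high in a column where its log2 ratio exceeds the 95th percentile of the 5384 intronless genes of that column, so that about 5% of intronless genes are high by construction. As deposited, 90.5% of ribosomal protein intron genes were high for Mud2, 88.4% in spt5_194 and 92.6% for Lea1 in SUB2 wild type. Their medians there, 2.24, 0.56 and 0.78, would be negative with the sign turned. The shares in the remaining unsettled columns were 0% in 6-azauracil and 3.16% for Mud2 after RNase.

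The U1 factor Prp40 and the U2 factor Lea1 reached the most of these genes in rich medium. For Prp40, 20 of 34 measured genes were high, against 8.04% of all genes, and their median log2 ratio was 0.55, with a range from -0.39 to 1.67. For Lea1, 16 of 34 were high, against 7.65% of all genes, with a median of 0.41. The Lea1 set held 14 of the Prp40 genes, which is 70.0% of the Prp40 set and 87.5% of the Lea1 set. The overlap over all genes was not counted. In comparison, 61.3% of the 111 other intron genes measured and 97.9% of the 95 ribosomal protein intron genes were high for Prp40. The corresponding shares for Lea1 were 54.1% and 93.7%.

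The branch point factors, Prp11, Prp5 and Prp19 were high on a smaller number. BBP was high on 8 of 35, against 7.31% of all genes, and Prp11 on 8 of 34, against 7.24%. Prp5 was high on 7 of 34, against 7.26% of all genes, and Prp19 on 8 of 34, against 6.78%. Each of these counts lies above the background share but well below the count for Prp40. Mud2 was high on 5 of 34, against 6.8% of all genes, and with the sign of that column turned the count was 1, LDS2 in place of the 5. The shares for ribosomal protein intron genes were 95.8% for BBP, 93.7% for Prp11, 95.8% for Prp5 and 67.4% for Prp19. For Mud2 as deposited, 90.5% of ribosomal protein intron genes and 20.7% of other intron genes were high.

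Prp2, Brr2 in rich medium and Sub2 were high on few of the genes, at counts near the background. Prp2 was high on 3 of 35, against 6.12% of all genes, and Brr2 on 2 of 35, against 5.69%. Sub2, an RNA helicase of splicing and mRNA export, was high on 1 of 34, against 4.93% of all genes. The transcription columns were also near or below the background. The elongation factor Spt5 was high on 1 of 34, the nucleotide hydrolase gene HNT2, against 6.63% of all genes. RNA polymerase II was high on 1 of 35, HNT1, against 5.39% of all genes. Apart from HNT1, the genes high for Prp40 or Lea1 were thus not themselves high for the polymerase.

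**Figure D1:**
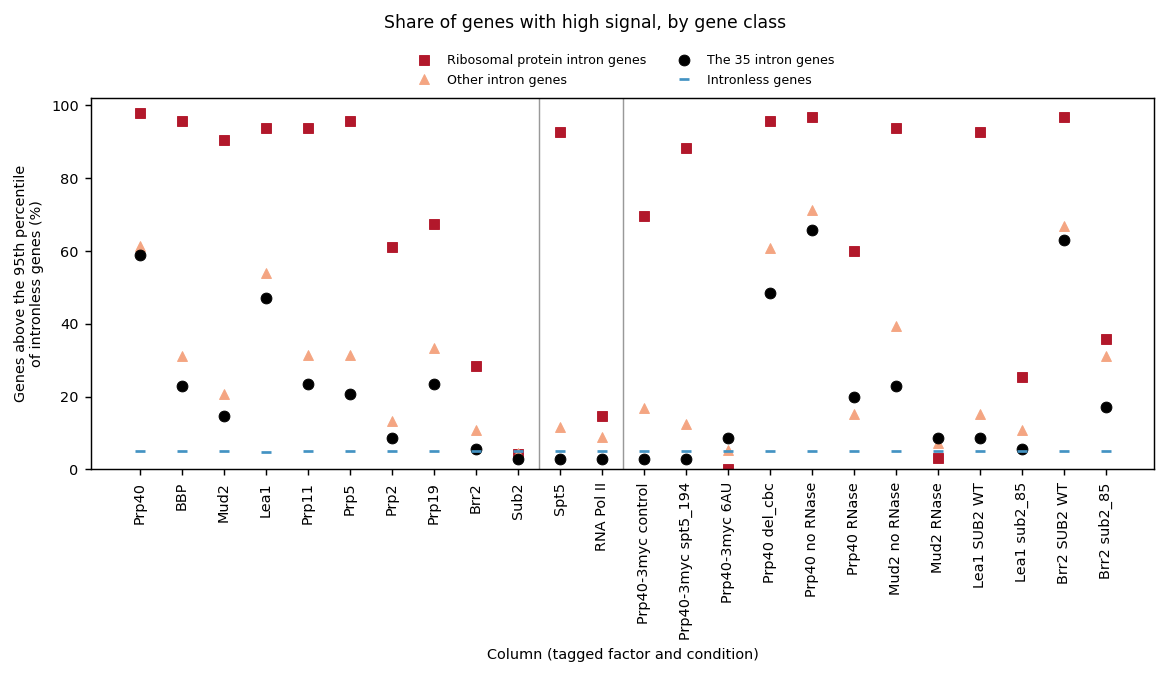
Percentage of genes above the 95th percentile of intronless genes in each of the 24 columns, for the 35 genes (black circles), other intron genes (triangles), ribosomal protein intron genes (squares) and intronless genes (blue dashes). The 35 genes stand highest for Prp40-9myc without RNase, Brr2 in SUB2 wild type at 37C and the Prp40 profile, and lie close to the other intron genes there, whereas ribosomal protein intron genes stand above both in most columns.

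Over the 10 splicing factor profiles of rich medium, 7 of the 35 genes were high in 5 or more, 23 in 1 to 4, and 5 in none. The median number was 2. Among intronless genes 1.54% were high in 5 or more and 70.9% in none. Of the 112 other intron genes, 27 were high in 5 or more and 23 in none, with a median of 3. Of the 95 ribosomal protein intron genes, 91 were high in 5 or more and 2 in none, with a median of 8. No gene of the 35 reached 5 profiles when the 99th percentile of intronless genes was used. All 7 leading genes were high in exactly 5 profiles. HNT1, EFM5, NYV1 and VPS75 were high for the same 5 factors, Prp40, BBP, Lea1, Prp11 and Prp5, whereas MAF1, KEI1 and CPT1 were high for Prp40, Lea1 and Prp19 and 2 further factors each.

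**Figure D2:**
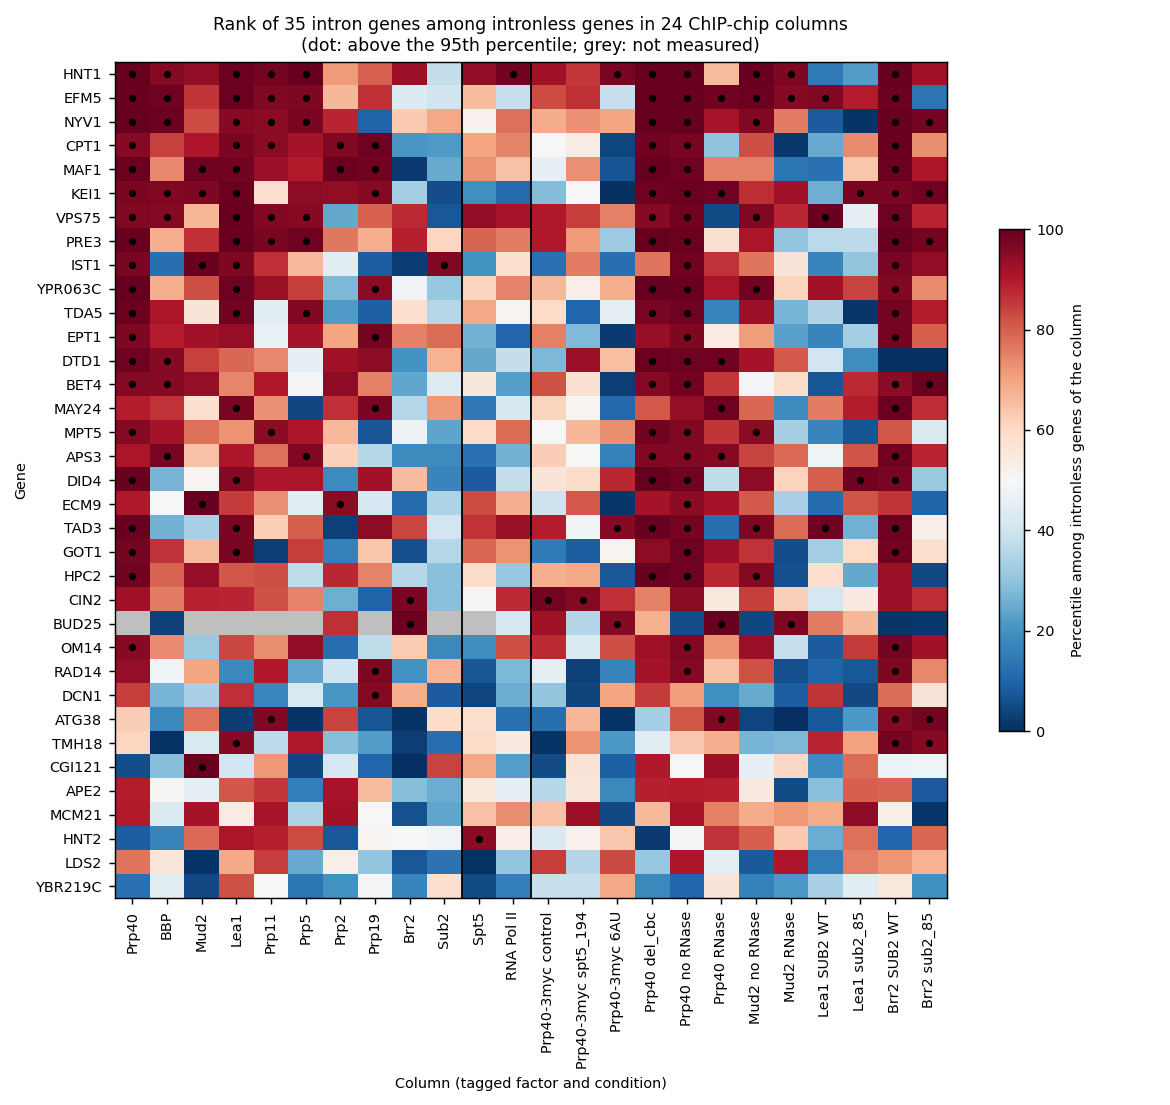
Percentile of each of the 35 genes (rows) among intronless genes in each of the 24 columns, with genes ordered by the number of splicing profiles in which they were high. The 7 upper rows are high in the Prp40 and Lea1 profiles and in the other Prp40-9myc columns without RNase, and the lowest 5 rows, APE2, MCM21, HNT2, LDS2 and YBR219C, were high in none of the 10 splicing profiles.

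HNT1 (YDL125C), a nucleoside phosphoramidase of the histidine triad family, had the highest Prp40 signal of the 35. Its log2 ratios were 1.67 for Prp40, 0.36 for BBP, 1.44 for Mud2, 1.20 for Lea1, 0.42 for Prp11, 1.26 for Prp5, 0.26 for Prp2, 0.28 for Prp19, 0.48 for Brr2 and -0.16 for Sub2. It was high for Prp40, BBP, Lea1, Prp11 and Prp5, and its Mud2 value lay just under the threshold of 1.53. It also had the highest RNA polymerase II value of the 35, 1.86. Against intronless genes of the same quintile of polymerase signal it was high in 3 profiles in place of 5.

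EFM5 (YGR001C) encodes a lysine methyltransferase that acts on translation elongation factor eEF1A. The gene stood at 1.13 for Prp40, 0.53 for BBP, 0.73 for Mud2, 1.21 for Lea1, 0.34 for Prp11, 0.46 for Prp5, 0.20 for Prp2, 0.37 for Prp19, -0.07 for Brr2 and -0.13 for Sub2. It was high for the same 5 factors as HNT1, but with an RNA polymerase II value of -0.20. Against intronless genes of its own polymerase quintile it was still high in 5 profiles.

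NYV1 (YLR093C), a SNARE protein of vacuole fusion, was the leading gene of the membrane traffic group. Its log2 ratios were 1.60 for Prp40, 0.59 for BBP, 0.58 for Mud2, 0.52 for Lea1, 0.30 for Prp11, 0.48 for Prp5, 0.53 for Prp2, -0.33 for Prp19, 0.06 for Brr2 and 0.26 for Sub2. Its BBP value was the highest of the 35, and its Lea1 and Prp11 values lay close to their thresholds of 0.49 and 0.29. Its RNA polymerase II value was 0.36.

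VPS75 (YNL246W), a histone chaperone gene, had the highest Lea1 signal of the 35. Its log2 ratios were 0.59 for Prp40, 0.35 for BBP, 0.15 for Mud2, 1.40 for Lea1, 0.34 for Prp11, 0.40 for Prp5, -0.28 for Prp2, 0.28 for Prp19, 0.34 for Brr2 and -0.90 for Sub2. It was high for the same 5 factors as HNT1, EFM5 and NYV1, with 0.93 for RNA polymerase II. Against intronless genes of the same polymerase quintile it was high in 1 profile in place of 5. The gene overlaps CWC25, whose log2 ratios were 0.69 for Prp40 and 0.98 for RNA polymerase II, and the part of the neighbour in the VPS75 values was not tested.

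MAF1 (YDR005C), the repressor of RNA polymerase III, showed another pattern. The log2 ratios of MAF1 were 0.99 for Prp40, 0.12 for BBP, 2.25 for Mud2, 0.88 for Lea1, 0.24 for Prp11, 0.23 for Prp5, 1.83 for Prp2, 0.84 for Prp19, -0.62 for Brr2 and -0.37 for Sub2. It was high for Prp40, Mud2, Lea1, Prp2 and Prp19 and not for BBP, Prp11 or Prp5. Its RNA polymerase II value was 0.13.

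KEI1 (YDR367W), the regulatory subunit of inositol phosphorylceramide synthase, joined Mud2 and Prp19 with BBP. Its log2 ratios were 0.65 for Prp40, 0.37 for BBP, 1.80 for Mud2, 1.18 for Lea1, 0.01 for Prp11, 0.35 for Prp5, 0.76 for Prp2, 0.62 for Prp19, -0.12 for Brr2 and -1.01 for Sub2. Its Prp5 and Prp2 values lay just under the thresholds of 0.36 and 0.81. Its RNA polymerase II value was -0.58, among the lowest of the 35, and within its own polymerase quintile it was high in 7 profiles.

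CPT1 (YNL130C), the cholinephosphotransferase of phosphatidylcholine synthesis, was high for Prp40, both U2 factors, Prp2 and Prp19, but not for Brr2. Its log2 ratios were 0.51 for Prp40, 0.19 for BBP, 1.04 for Mud2, 0.65 for Lea1, 0.30 for Prp11, 0.27 for Prp5, 0.89 for Prp2, 0.94 for Prp19, -0.21 for Brr2 and -0.44 for Sub2. Its Prp19 value was the highest of the 35, while its Prp40 and Prp11 values lay just above the thresholds of 0.48 and 0.29. EPT1 (YHR123W), the related ethanolaminephosphotransferase, was high for Prp40 at 0.62 and Prp19 at 0.77. The pair are similar in sequence, and hybridisation of the product of either gene to the probe of the other was not tested. With the Mud2 column left out, an alternative chosen after seeing the data, MAF1 and KEI1 were high in 4 profiles and 5 of the 7 genes stayed at 5.

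The genes of membrane traffic were reached mainly by Prp40, Lea1 and BBP. Of the 7, 5 were high for Prp40, 4 for Lea1, 3 for BBP and 0 for Prp19. DID4 (YKL002W), a subunit of the endosomal sorting complex that buds vesicles inward, stood at 1.21 for Prp40 and 0.55 for Lea1. GOT1 (YMR292W), which acts in transport between the endoplasmic reticulum and the Golgi, stood at 0.77 for Prp40 and 0.63 for Lea1. IST1 (YNL265C), which works with the same endosomal sorting machinery as DID4, stood at 0.64 for Prp40 and 0.59 for Lea1. IST1 also had the highest Mud2 value of the 35, at 2.81, which would be the lowest with that column turned, and was the only gene of them high for Sub2, at 1.06. BET4 (YJL031C), the alpha subunit of the enzyme that attaches lipid anchors to Rab proteins, was high for Prp40 at 0.54 and BBP at 0.35. APS3 (YJL024C), the small subunit of a vacuolar adaptor complex, was high for BBP at 0.43 and Prp5 at 0.43 but stood at 0.32 for Prp40. ATG38 (YLR211C), of the autophagy lipid kinase complex, was high for Prp11 alone, at 0.35.

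All 3 lipid synthesis genes were high for both Prp40 and Prp19. For Prp19 they stood at 0.94 for CPT1, 0.77 for EPT1 and 0.62 for KEI1, against a threshold of 0.57. The chromatin and repair genes were mixed, with 3 of 5 high for Prp40. HPC2 (YBR215W), of the HIR histone chaperone complex, was high for Prp40 alone, at 0.81. RAD14 (YMR201C), which recognises damage in nucleotide excision repair, was high for Prp19 alone, at 0.66. MCM21 (YDR318W), a kinetochore gene, was high for none, with 0.30 for Prp40 and -0.01 for Lea1.

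Of the 5 genes of tRNA, translation and mRNA control, 4 were high for Prp40. TAD3 (YLR316C), a subunit of the tRNA adenosine deaminase, stood at 1.07 for Prp40 and 0.63 for Lea1, and at 1.09 for RNA polymerase II. DTD1 (YDL219W), a deacylase of D-aminoacyl-tRNA, was high for Prp40 at 0.87 and BBP at 0.34. MPT5 (YGL178W), an mRNA-binding protein of the Puf family, was high for Prp40 at 0.56 and Prp11 at 0.30. These 3 genes shared Prp40 and differed in the second factor. CGI121 (YML036W), of the KEOPS tRNA modification complex, had the lowest Prp40 value of the 35, -0.39, together with 2.56 for Mud2.

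Of the 7 genes of turnover, folding and metabolism, 3 were high for Prp40. PRE3 (YJL001W), a catalytic beta subunit of the proteasome, stood at 1.12 for Prp40, 1.27 for Lea1, 0.37 for Prp11 and 0.61 for Prp5, and was high for all of these. OM14 (YBR230C), a mitochondrial outer membrane protein, was high for Prp40 alone, at 0.53. DCN1 (YLR128W), which promotes attachment of the ubiquitin-like protein Rub1 to cullins, was high for Prp19 alone, at 0.61. APE2 (YKL157W), an aminopeptidase, stood at 0.29 for Prp40 although it neighbours RPS27A, a ribosomal protein intron gene with 2.27 for Prp40. It was the only one of the 35 with a neighbouring intron gene that was itself high for Prp40. HNT2 (YDR305C), a dinucleoside triphosphate hydrolase, stood at -0.34 for Prp40 despite its Spt5 value of 1.03.

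CIN2 (YPL241C), a tubulin folding factor, stood apart in that it was high for Brr2 in rich medium, at 1.03, and in no other splicing profile. It neighbours the intronless heat shock gene HSP82, whose log2 ratios were 0.66 for Prp40 and 2.12 for RNA polymerase II, and the part of that neighbour was not tested.

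The little characterised genes ranged from clear signal to none. YPR063C, a membrane protein of unknown function, stood at 1.28 for Prp40, 0.93 for Lea1 and 0.57 for Prp19. TDA5 (YLR426W) stood at 0.98 for Prp40, 0.83 for Lea1 and 0.43 for Prp5. These were the only 2 of the 8 that were high for Prp40, whereas 4 of the 8 were high for Lea1. MAY24 (YPR153W) stood at 0.64 for Lea1 and 0.71 for Prp19, but at 0.29 for Prp40. ECM9 (YKR004C) had 2.70 for Mud2 and 0.82 for Prp2, and 0.31 for Prp40. BUD25 (YER014C-A) had the single highest value of all, 3.80 for Brr2, but lacked values in 8 of 24 columns, Prp40 among them. LDS2 (YOL047C), a gene of spore formation, had -1.43 for Mud2 and 0.13 for Prp40.

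The 3 genes with the lowest mean percentile over the splicing profiles were YBR219C, CGI121 and TMH18. YBR219C had log2 ratios of -0.30 for Prp40, -0.03 for BBP, -1.06 for Mud2, 0.20 for Lea1, -0.02 for Prp11, -0.22 for Prp5, -0.35 for Prp2, 0.03 for Prp19, -0.24 for Brr2 and 0.11 for Sub2. None of these passed its threshold, and the mean percentile was 35.3. CGI121 had -0.39 for Prp40, -0.11 for BBP, 2.56 for Mud2, -0.10 for Lea1, 0.07 for Prp11, -0.34 for Prp5, -0.07 for Prp2, -0.33 for Prp19, -1.37 for Brr2 and 0.54 for Sub2, with a mean percentile of 38.6. The Mud2 value was the only high one, so that with the Mud2 column left out CGI121 was high in 0 profiles. TMH18 (YPR098C) had 0.01 for Prp40, -0.91 for BBP, -0.29 for Mud2, 0.53 for Lea1, -0.08 for Prp11, 0.24 for Prp5, -0.22 for Prp2, -0.18 for Prp19, -0.55 for Brr2 and -0.67 for Sub2, with a mean percentile of 39.3. It was high for Lea1 alone. This order depends on the Mud2 column: with its sign turned the 3 lowest were CGI121 at 28.8, ATG38 at 35.4 and TMH18 at 40.7, and YBR219C stood at 44.3.

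Signal followed transcription only in part. Across the 34 genes measured for both, the Prp40 log2 ratio had a Spearman rho of 0.40 and a Pearson r of 0.49 with RNA polymerase II, and across intronless genes the rho was 0.45. Across 34 or 35 genes the rho was 0.42 for Prp5, 0.41 for Lea1, 0.37 for Brr2 and 0.36 for Prp11, against 0.09 for BBP, 0.01 for Mud2, -0.12 for Prp19, -0.15 for Prp2 and -0.14 for Sub2. These are descriptions across genes of pooled arrays, which share hybridisations. The 7 genes high in 5 or more profiles lay at polymerase percentiles from 11.4 to 98.1 of intronless genes, with a median of 74.8. The 23 genes high in 1 to 4 profiles had a median percentile of 42.1, and the 5 genes high in none a median of 45.7, so the groups overlapped widely. When each gene was set against intronless genes of its own polymerase quintile, Prp40 was high on 20, against 8.23% of all genes, and Lea1 on 17, against 7.66%. On that basis Prp2 was high on 6, against 5.52%, and Brr2 in SUB2 wild type at 37C on 22, against 8.12%.

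**Figure D3:**
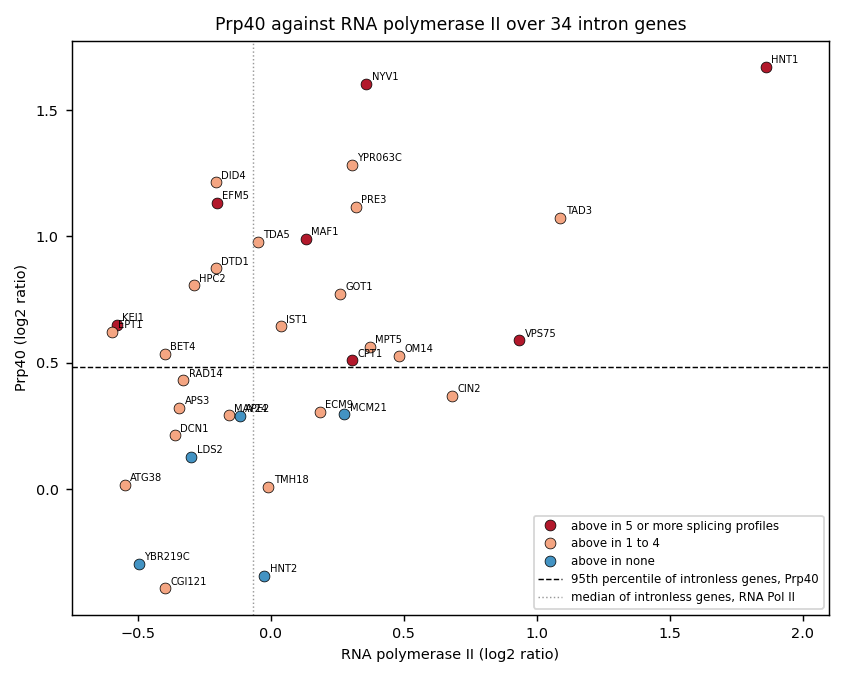
Prp40 log2 ratio against RNA polymerase II log2 ratio for the 34 genes measured in both columns, with the 95th percentile of intronless genes for Prp40 (0.48) drawn as a line. Genes above the line lie at low, middle and high polymerase signal, and HNT1 has the highest value on both axes.

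The Prp40 pattern recurred in the other Prp40-9myc columns. Without the cap-binding complex 17 of 35 were high, against 7.95% of all genes, with a median of 0.42. After short fixation without RNase 23 of 35 were high, against 8.39% of all genes, with a median of 0.74. The del_cbc set held 16 of the 20 profile genes, which is 80.0% of the profile set and 94.1% of the del_cbc set. The short fixation set held all 20, which is 87.0% of its own 23, and added APS3, ECM9 and RAD14. The overlaps of these columns over all genes were not counted. Over the genes, rho with the profile was 0.90 for del_cbc and 0.95 for short fixation. Over other intron genes these values were 0.86 and 0.94, and over intronless genes 0.53 and 0.54. In all 3 columns 16 of the genes were high, and in none of the 3 were 12: APE2, ATG38, BUD25, CGI121, CIN2, DCN1, HNT2, LDS2, MAY24, MCM21, TMH18 and YBR219C.

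Changes between columns are given after each column was centred on its intronless genes, so they can differ slightly from the levels printed. Between del_cbc and the profile the median change was 0.00, against 0.01 over all genes, and no gene passed a 2-fold difference. Over all genes 0.639% fell and 0.106% rose by that much. The lowest differences were -0.53 for IST1, -0.36 for HNT1 and -0.30 for GOT1, and the highest 0.69 for CGI121, 0.33 for CPT1 and 0.32 for HPC2. For IST1 this was a step from 0.64 to 0.06, below the threshold.

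The Prp40 signal of most of these genes was lower with RNase. Their median change between the columns with and without RNase was -0.84, against -0.02 over all genes, with 31 of 35 below 0. More than 2-fold falls were seen for 17, against 5.46% of all genes, and no gene rose by that much, against 0.159%. After quantile normalisation of the columns the median change was -0.42 and 5 genes fell. The falls took in NYV1 from 2.55 to 0.12, HNT1 from 2.29 to 0.04 and EFM5 from 1.96 to 0.21, which had held the highest values without RNase. The remaining 14 that fell were YPR063C, PRE3, TDA5, VPS75, MAF1, DID4, TAD3, KEI1, GOT1, HPC2, IST1, BET4, DTD1 and CPT1. BUD25 went the other way, from -0.41 to 0.36, and YBR219C and CGI121 had differences of 0.25 and 0.13, all short of 2-fold. Falls of this size were seen for 52.7% of other intron genes, 96.8% of ribosomal protein intron genes and 2.45% of intronless genes.

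After RNase 7 of 35 were high for Prp40, against 6.36% of all genes. EFM5, KEI1, DTD1 and APS3 had been high without RNase as well, whereas MAY24, BUD25 and ATG38 had not. The threshold in that column was 0.15, against 0.57 without RNase, so that a gene high after RNase held a far lower ratio. EFM5, for example, passed it at 0.21 and KEI1 at 0.24.

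Mud2 after short fixation resembled Prp40 more than the Mud2 profile. Without RNase it was high on 8 of 35, against 7.31% of all genes: HNT1 at 1.66, EFM5 at 1.25, YPR063C at 1.02, TAD3 at 0.73, NYV1 at 0.72, VPS75 at 0.71, HPC2 at 0.67 and MPT5 at 0.61. None of these 8 was among the 5 that were high in the Mud2 profile, which were IST1, ECM9, CGI121, MAF1 and KEI1. Sets this small would share few genes in any case, and the overlap over all genes was not counted. Over the genes rho between the Mud2 columns was 0.10, whereas the Prp40 profile and Mud2 without RNase had a rho of 0.81. Over intronless genes the same pairs had rho values of 0.15 and 0.55. The Mud2 profile had a rho of 0.61 with Prp2 over the 34 genes measured and 0.58 over intronless genes, and of -0.54 with Prp40-3myc in 6-azauracil, against -0.42 over intronless genes. All of these values thus had the same sign in genes without introns.

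With RNase the Mud2 median changed by -0.31, against -0.01 over all genes, and 3 genes fell more than 2-fold, against 4.16% of all genes. These were HNT1 from 1.66 to 0.25, EFM5 from 1.25 to 0.22 and YPR063C from 1.02 to 0.03. None rose by that much, against 0.987% of all genes, with the highest differences at 0.75 for BUD25, 0.54 for LDS2 and 0.19 for YBR219C. Among ribosomal protein intron genes 93.7% fell. After RNase 3 of 35 were high for Mud2, against 5.13% of all genes, and with the sign of that column turned the count was 2 and HNT1, EFM5 and YPR063C again fell, with ATG38 the highest difference at 0.87.

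**Figure D4:**
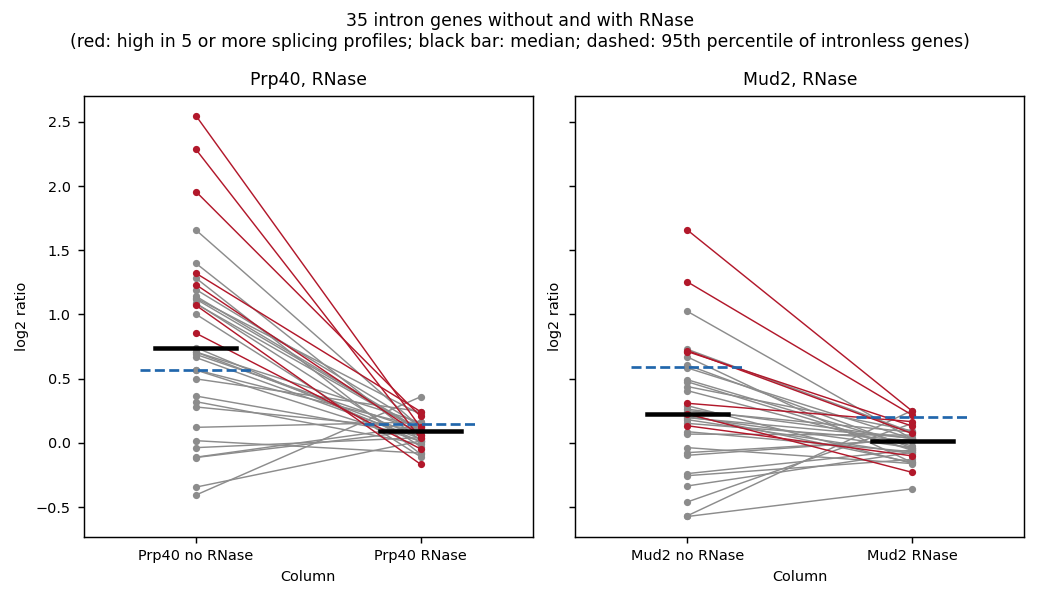
Log2 ratios of the 35 genes for Prp40-9myc and Mud2-13myc without and with RNase, each gene a line, in red for genes high in 5 or more splicing profiles, with the median as a black bar and the 95th percentile of intronless genes dashed in blue. The Prp40 median moves from 0.74 to 0.09 and the Mud2 median from 0.23 to 0.02.

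In the Prp40-3myc columns of SC-URA medium almost none of the genes was high. The control was high on 1 of 35, CIN2 at 0.63, against 6.47% of all genes, and spt5_194 on 1, CIN2 at 0.43, against 6.57%. With the sign of the spt5_194 column turned that count was 2. None of the 20 genes high in the Prp40-9myc profile was high in the 3myc control, but with 1 high gene there the overlap could be at most 1. Between these columns rho was 0.44 over the 34 genes measured and 0.29 over intronless genes. Prp40-3myc and Prp40-9myc columns differ in tag, strain and medium at once, which cannot be told apart. In the same control 69.5% of ribosomal protein intron genes and 17.0% of other intron genes were high. For spt5_194 as deposited the shares were 88.4% and 12.5%.

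Between spt5_194 and the control the median change was -0.01, against 0.01 over all genes, and no gene fell or rose 2-fold, against 2.22% and 0.67% of all genes. The outermost differences were -0.38 for BUD25, -0.28 for RAD14 and -0.27 for TAD3, and 0.85 for TMH18, 0.41 for DTD1 and 0.38 for CGI121. With the spt5_194 column turned the median change was -0.06 and CIN2 fell, with a difference of -1.11, followed by -0.49 for HNT1 and -0.44 for VPS75, while TMH18 at 0.67 was still the highest. After 6-azauracil 3 of 35 were high, against 5.04% of all genes: HNT1 at 0.70, TAD3 at 0.57 and BUD25 at 0.57. With the sign of that column turned 7 were high. The median change with 6-azauracil was -0.08, against -0.01 over all genes, and no gene fell or rose 2-fold, against 0.828% and 0.864% of all genes. KEI1 came closest, with a difference of -0.92, followed by -0.78 for BET4 and -0.77 for EPT1, while TMH18 had 0.53, HNT1 0.36 and DID4 0.32. With the 6-azauracil column turned these results reversed for single genes: KEI1 rose by 1.13 and ATG38 by 1.00, and HNT1 fell by 1.01, each past 2-fold.

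Brr2 was high on many more of the genes at 37C than in rich medium. In SUB2 wild type at 37C it was high on 22 of 35, against 8.16% of all genes, with a median of 0.67. All 7 membrane traffic genes and all 3 lipid genes were among them, led by PRE3 at 1.76, NYV1 at 1.63, HNT1 at 1.51 and CPT1 at 1.41. In the rich medium profile the 2 high genes, a count near the 5.69% of all genes, were CIN2 and BUD25. Neither was high at 37C, where BUD25 stood at -0.74, but 2 genes are too few to compare the sets. The 37C set held 17 of the 20 genes high for Prp40 in rich medium, which is 85.0% of the Prp40 set and 77.3% of its own. Overlaps of Brr2 at 37C with the Prp40 columns were not counted over all genes. In rich medium Brr2 was high on 10.7% of other intron genes and 28.4% of ribosomal protein intron genes. At 37C in SUB2 wild type these shares were 67.0% and 96.8%, so the higher count was shared by both classes. Medium, temperature and the SUB2 strain background differ between these Brr2 columns and cannot be told apart. DTD1 was an exception with -2.21 at 37C, the lowest value of the 35 in that column, although it was high in all 3 Prp40-9myc columns. High for all 3 of those columns and for Brr2 at 37C were 13 genes: BET4, CPT1, DID4, EFM5, HNT1, KEI1, MAF1, NYV1, PRE3, TAD3, TDA5, VPS75 and YPR063C.

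In sub2_85 the Brr2 signal of the genes was lower. The median change was -0.47, against -0.03 over all genes, with 30 of 35 below 0. More than 2-fold falls were seen for 5, against 2.93% of all genes: EFM5 from 1.24 to -0.42, DTD1 from -2.21 to -3.68, CPT1 from 1.41 to 0.20, HPC2 from 0.39 to -0.62 and HNT1 from 1.51 to 0.53. DTD1 and HPC2 were not high in SUB2 wild type, where the threshold was 0.48, so their falls are not a loss of high Brr2 signal. No gene rose 2-fold, against 1.9% of all genes, and BET4 had the highest difference at 0.73, followed by HNT2 at 0.59 and KEI1 at 0.37. In sub2_85 Brr2 was still high on 6 of 35, against 6.08% of all genes: BET4, KEI1, NYV1, PRE3, ATG38 and TMH18. All 6 were also high in SUB2 wild type, where they made up 27.3% of the set. The overlap over all genes was not counted. Falls of this size were seen for 12.5% of other intron genes and 55.8% of ribosomal protein intron genes.

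Lea1 at 37C differed from Brr2. In SUB2 wild type it was high on 3 of 35, VPS75 at 0.60, TAD3 at 0.51 and EFM5 at 0.37, against 6.68% of all genes, and with the sign of that column turned on 0. In sub2_85 it was high on 2 of 35, DID4 at 0.29 and KEI1 at 0.26, against 5.48% of all genes. The median change between them was 0.10, against -0.01 over all genes, and -0.06 with the SUB2 wild type column turned. No gene fell or rose 2-fold, against 0.335% and 1.08% of all genes. The lowest differences were -0.59 for VPS75, -0.57 for TAD3 and -0.42 for DCN1, and the highest 0.44 for BET4, 0.41 for OM14 and 0.37 for KEI1. With the SUB2 wild type column turned, VPS75 had the highest difference at 0.56 and NYV1 the lowest at -0.69. In SUB2 wild type Lea1 was high on 92.6% of ribosomal protein intron genes and 15.2% of other intron genes, so that the low count was shared by the intron genes outside the ribosomal proteins.

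**Figure D5:**
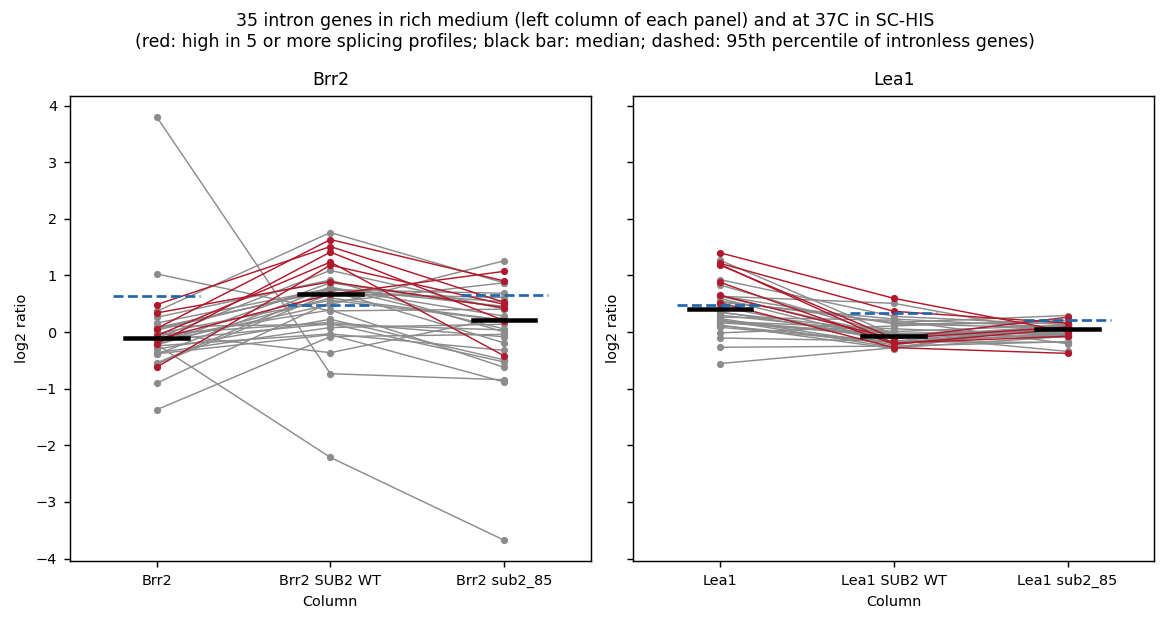
Log2 ratios of the 35 genes for Lea1-13myc and Brr2-13myc in rich medium and at 37C with wild-type SUB2 and sub2_85, each gene a line, in red for genes high in 5 or more splicing profiles, with the median as a black bar and the 95th percentile of intronless genes dashed in blue. The Brr2 median goes from -0.11 in rich medium to 0.67 at 37C and 0.21 in sub2_85, whereas the Lea1 median goes from 0.41 to -0.07 and 0.06.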

How the data were processed

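ChIP-chip was measured on 24 groups, each a single column in which 2 to 6 replicates are already combined. Per the labels and the series design text, DNA was amplified by linker-mediated PCR, labelled by Klenow incorporation, hybridised to spotted open reading frame arrays, scanned on a GenePix 4000B and combined in Rosetta Resolver. The deposited values are log2 ratios. In 18 of 24 columns values end at 6.64, a 100-fold ratio. For normalisation within arrays, the build and the direction of the combined ratio, no statement is given in the sources used here.

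Of 6284 probes, 5674 were matched to genes of the RefSeq table (R64) and 610 were not used. Here 242 intron genes (the 35, 112 others and 95 for ribosomal proteins) were set against 5384 intronless genes, and 48 genes were placed in neither class. The intron list was written from memory, because no protein lengths were at hand for the rule that was planned. The members and lists were chosen with earlier results of these data known.

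A gene was called high above the 95th percentile of intronless genes. Changes are differences of log2 ratios after each column was centred on the median of its intronless genes, with 2-fold as the limit. All 35 genes could be named. Values in every splicing profile are given for genes high in 5 or more profiles and for the 3 with the lowest mean percentile, the 3 outermost changes each way are named for each comparison, and an intron neighbour is named where it was high for Prp40. CWC25 and HSP82 lie outside this rule and were chosen after their values were seen. Alternatives were the 99th percentile, intronless genes of the same quintile for RNA polymerase II or Spt5, quantile normalisation, means, no centring, a 1.5-fold limit, turned signs and, added after seeing the data, leaving out Mud2 and turned signs for single genes. Python 3.11.15, numpy 2.4.6, pandas 2.3.3 and matplotlib 3.10.9 were used. The calling steps were run on simulated data with shifts larger than any signal of the 35 genes. That run checks the code and cannot show how well signals of the sizes seen here are called. Arrays carry no depth, and their small number limits the precision.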

Additional observations from a re-analysis of the deposited data

Results flagged for a closer look

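In the columns as deposited, the median change of the 35 genes between SUB2 wild type and sub2_85 at 37C had opposite signs for Lea1 and Brr2, 0.10 and -0.47. Of the 35, 18 were higher for Lea1 and lower for Brr2, 12 were lower for both, 5 were higher for both and 0 were lower for Lea1 and higher for Brr2. The difference was not tested, since each value rests on 1 column of pooled replicates per group. With the sign of the Lea1 column in SUB2 wild type turned, its median change was -0.06, the same sign as for Brr2. In that case 10 were higher for Lea1 and lower for Brr2, 20 were lower for both, 1 was higher for both and 4 were lower for Lea1 and higher for Brr2. Joint counts of this kind were not made over all genes, so no background share stands beside them. As deposited, the median changes of other intron genes were 0.07 for Lea1 and -0.40 for Brr2. Those of ribosomal protein intron genes were -0.60 and -1.07.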

How the results depend on the processing

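No paired analysis was possible because each group is a single column in which replicates are already combined, and for the same reason no replicate could be left out.
At the 99th percentile the counts of high genes were 7 for Prp40, 1 for BBP, 3 for Mud2, 5 for Lea1, 0 for Prp11, 1 for Prp5, 1 for Prp2, 0 for Prp19, 1 for Brr2, and 0 each for Sub2, Spt5 and RNA polymerase II. They were 0 in the 3 Prp40-3myc columns, 10 for del_cbc, 5 for Prp40 without RNase, 1 with RNase, 1 for Mud2 without RNase, 0 with RNase, 1 for Lea1 in SUB2 wild type, 0 in sub2_85, 6 for Brr2 in SUB2 wild type and 0 in sub2_85.
Where a column was set against quintiles of its own values, its count shows only the position of genes within a quintile. That holds for RNA polymerase II by polymerase quintile and for Spt5 by Spt5 quintile. Against the same polymerase quintile, counts were 6 for Prp2, 1 for Brr2, 0 for RNA polymerase II and 2 for spt5_194. Against the same Spt5 quintile they were 12 for Prp5, 5 for Prp2, 1 for Brr2, 6 for Spt5, 2 for RNA polymerase II, 3 for spt5_194, 0 for 6-azauracil and 14 for Mud2 without RNase. With turned signs they were 1 for Mud2, 2 for spt5_194, 7 for 6-azauracil and 0 for Lea1 in SUB2 wild type, and the median minus that of intronless genes was -0.67, 0.0878 and 0.0844 for Mud2, 6-azauracil and Lea1, the same sizes with the other sign. After quantile normalisation that difference was 0.25 for Mud2, 0.31 for Prp11, -0.10 for Sub2, 0.62 for Prp40 without RNase and 0.32 with it. With means it was -0.0526 for Spt5 in place of 0.11, 0.58 for Brr2 in SUB2 wild type and 0.0873 in sub2_85.
Among the changes, the Prp40 RNase median was -0.42 after quantile normalisation and -0.73 without centring, and the Lea1 sub2_85 median was -0.0643 with the sign turned. After quantile normalisation 5 genes fell for Prp40 with RNase, 1 for Mud2 with RNase, 3 for Brr2, 2 for Lea1 and 1 for 6-azauracil, and 1 rose for spt5_194, Prp40 with RNase, Mud2 with RNase and Lea1. At 1.5-fold 11 fell for Mud2 with RNase, 15 for Brr2, 4 for 6-azauracil and 1 for Lea1, while 2 rose for Brr2 and 1 each for spt5_194, del_cbc, Prp40 with RNase and Mud2 with RNase. With turned signs 1 fell for spt5_194 and for 6-azauracil, and 2 rose for 6-azauracil. With Spt5 in place of RNA polymerase II the rho was 0.0616 for Prp2 and 0.0759 for Sub2. The cause of these shifts was not tested. The intron list, the pooled columns and the unsettled direction of 5 columns limit every count.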
